A study of Homo sapiens with 12 samples.

Results

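The 28 proteins described here belong to the small (40S) subunit of the human ribosome: RPSA, RPS2, RPS3, RPS3A, RPS4X, RPS6, RPS7, RPS9, RPS10, RPS12, RPS13, RPS14, RPS15, RPS15A, RPS16, RPS18, RPS19, RPS20, RPS21, RPS23, RPS24, RPS25, RPS26, RPS27, RPS27A, RPS28, RPS29 and FAU. They were chosen by name from a table of 20212 genes. The rule used no measured value, but earlier results of these data were known when the choice was made. All 28 passed the filter on low counts, as did 13329 genes in all. The cells were PANC-1, an established line from a human pancreatic ductal carcinoma, treated with DMSO (3 cultures) or with 50 nM rapamycin for 60 min (3 cultures). Each treatment had 3 libraries of ribosome footprints (RF, the mRNA pieces that a ribosome shields from nuclease) and 3 of total RNA, 12 in all. RF and total RNA libraries of the same treatment and number were taken as 1 culture; the labels give no more than that number, and their deviations from the group means correlated at only -0.064 to 0.0245. No allele or other agent separated the groups, and PANC-1 is a single line, so the cultures measure the spread within that line. The labels number the cultures and do not say how far apart they were grown, so the p-values measure the spread between these cultures only.

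The small subunit binds the mRNA, carries the decoding site and scans for the start codon. Most 40S proteins sit in 1 copy on each subunit, around the 18S ribosomal RNA, and their shape is described as a head, a body and a platform. Many mRNAs of ribosomal proteins begin with a C followed by a run of pyrimidines, the 5′ terminal oligopyrimidine (TOP) motif, and TOP mRNAs are known as the class whose translation depends most closely on mTORC1, the kinase complex that rapamycin acts on. RPS6 is in addition the classical substrate of S6 kinase, an enzyme that mTORC1 switches on.

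The libraries were deep in total RNA, with 78081241 to 94293744 counted reads, and shallow in RF, with 278835 to 1574723. The biological coefficient of variation was 54.9% among RF and 5.31% among total RNA libraries. The smallest RF libraries were DMSO 1 and rapamycin 3, 1 in each treatment. A count of 0 allowed up to 2.04 to 9.98 CPM (reads per 1000000 of the scaled library) in RF and at most 0.0388 CPM in total RNA, for counting error only. The members were far above these floors: the lowest RF count of any member in any library was 50, and the members' median RF count summed over 6 libraries was 2684 against 86.0 for all genes tested. Of the line's markers, the keratin genes KRT8 (3460 to 3600 CPM), KRT18 and KRT19 were abundant in every total RNA library, while KRT7 (5.38 to 6.84 CPM) and EPCAM (7.3 to 8.33 CPM) were low. PTPRC, PRSS1 and INS, which mark blood, acinar and beta cells, were at or below 0.623 CPM.

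The start sites of the members show which of these mRNAs carry the TOP letters. Of the 28, 25 matched RefSeq's promoter table (GRCh38.p14), and RPS2, RPS15A and RPS20 are not shown. A C at the annotated start followed by at least 4 bases that are each C or T, read on the gene's strand, was present in 18 of 25 members (72%), against 729 of 15842 protein-coding genes (4.6%). The runs were 6 to 14 pyrimidines long in those 18. Each line below gives 6 bases before the RefSeq start and 20 from it, 5′ to 3′, matched to GRCh37, with the pyrimidine run in capitals. They are the members with the highest and lowest ratios of RF to RNA that could be placed, RPS6 and the member with the longest run (RPS24). Members without a run that begins within 4 bases of the start follow, and their other pyrimidines are left in lower case.
RPS16 (chr19:39926570-39926595, minus): agctttCCTTTTCCggttgcggcgcc
FAU (chr11:64889587-64889612, minus): ttcttcCTCTTTCTCgactccatctt
RPS21 (chr20:60962153-60962178, plus): ctgcttCCTTTCTCTCTCgcgcgcgg
RPS28 (chr19:8386374-8386399, plus): cacgtgaCTCCTCTCCgccagaccgc
RPS6 (chr9:19380215-19380240, minus): ttggccCTCTTTTCCgtggcgcctcg
RPS24 (chr10:79793615-79793640, plus): gtggttCTCTTTTCCTCCTTggctgt
RPS10 (chr6:34393827-34393852, minus): ctccttCCTTTCCagccccggtaccg
RPS15 (chr19:1438389-1438414, plus): gcggaccaaagcgatctcttctgagg
RPS27A (chr2:55459033-55459058, plus): acacacaagacccagactcttcccta
RPS7 (chr2:3622844-3622869, plus): ctcctcctcgcgctgtttccgcctct

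In RPS28 the run begins 1 base after the annotated start, so it was not counted as TOP. Counting any run of at least 5 pyrimidines that begins within 4 bases of the start raised the members to 21 of 25 (84%) and all genes to 16.1%. RPS7, RPS15, RPS27A and RPS29 had no run that begins within those 4 bases, which says only that these letters are not there at the RefSeq start. In RPS7 a pyrimidine run crosses the annotated start, and in RPS15, RPS27A and RPS29 a run of at least 5 begins further downstream in the window. The motif was present in 25 of 38 proteins of the large (60S) subunit (65.8%).

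The first comparison asks how many ribosomes the cells place on each of these mRNAs before treatment. Translation efficiency (TE) was the RF level of a gene over its total RNA level, as a ratio of CPM, and a ratio of 1 is set by the scaling of the libraries, not by an absolute count of ribosomes. TE is therefore given against the median gene. In DMSO the members' median TE was 1.57-fold that of the median gene (median log2 ratio 0.07 against -0.58), and 20 of 28 members (71.4%) lay above it. The 47 proteins of the 60S subunit stood at 1.43-fold, with 34 of 47 above the median gene. Among the 1625 genes with at least as much total RNA as the least abundant member, the median log2 ratio was -1.05, and 25 of 28 members lay above that.

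The members spanned a 12.2-fold range of TE in DMSO, or 7.06-fold without RPS16. The range between the quartiles was 2.28-fold for the members and 4.58-fold for all genes. Over the 1625 genes with at least as much total RNA as the least abundant member it was 2.49-fold, close to that of the members. Between cultures the log2 TE of a member varied by a median SD of 0.22, against 0.97 for all genes, from 0.05 in RPS13 to 0.61 in RPSA. In the edgeR quasi-likelihood test of RF against total RNA within DMSO, 9 members were higher and 8 lower at an adjusted p under 0.05, or 32.1% and 28.6% of the members. Of all genes, 21.3% were higher and 42.7% lower, 64% in either direction. These counts depend on the scaling, which moved the median gene by 0.57 on the log2 scale, so that 18 members were higher and 4 lower when all 12 libraries were scaled together. The members' median distance to the median gene was 0.65 under both scalings.

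**Figure D1:**
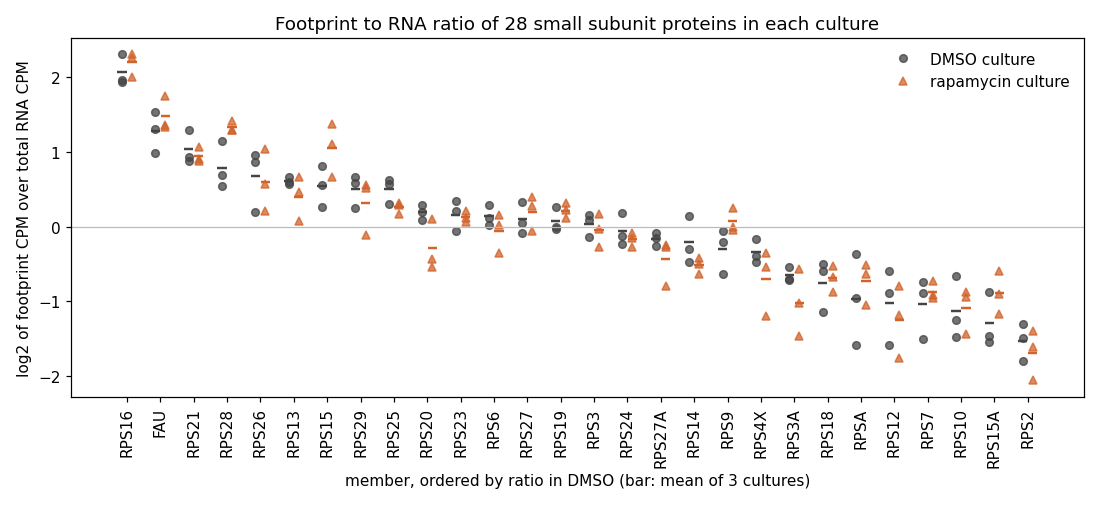
Log2 ratio of footprint CPM to total RNA CPM for each of the 28 members, ordered by the ratio in DMSO; each point is 1 culture (circles DMSO, triangles rapamycin) and each short bar the mean of 3 cultures. RPS16 lies above every other member in all 6 cultures, RPS2 is lowest in the mean of each treatment, and the cultures of the treatments overlap for 26 of 28 members.

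RPS16, whose tail reaches toward the tRNA in the P site of the head, had the highest TE of the members. Its RF levels were 8869, 9218 and 11420 CPM in DMSO and its total RNA levels 2316, 2365 and 2309 CPM. The log2 TE was thus 1.94, 1.96 and 2.31, and its fitted TE was 6.33-fold that of the median gene (rank 2169 of 13329). FAU, a fusion of a ubiquitin-like protein with the ribosomal protein S30, followed with log2 TE of 1.53, 1.31 and 0.99. Its highest culture stayed below the lowest culture of RPS16. RPS21, a short protein of the body and platform, stood at 0.88, 0.93 and 1.30, and RPS28, a small protein near the exit of the mRNA channel, at 0.54, 1.15 and 0.69. FAU, RPS21 and RPS28 overlapped from each to the next. Their fitted TE was 3.67-fold, 3.12-fold and 2.68-fold that of the median gene.

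At the low end, RPS2, at the entry of the mRNA channel, had RF levels of 366, 276 and 325 CPM on total RNA of 899, 966 and 917 CPM. Its log2 TE was -1.30, -1.80 and -1.49, which was 0.519-fold that of the median gene (rank 10161). RPS15A, a protein of the body bound to the central part of the 18S RNA, stood at -1.54, -1.46 and -0.87, and RPS10, a head protein that is ubiquitinated on stalled ribosomes, at -1.48, -1.25 and -0.66. RPS7, a body protein, stood at -1.50, -0.74 and -0.89. These 4 members could not be ordered against each other, since their cultures overlapped from each to the next. RPSA, a protein of the platform side whose mRNA is also known for the laminin receptor, RPS12 of the beak, RPS18 of the head and RPS3A of the platform made up the rest of the 8 members called lower.

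Between these ends, the members could be ordered only coarsely. Of the 27 pairs of neighbours in the DMSO order, 24 overlapped in their cultures, and the exceptions were RPS16 over FAU, RPS25 over RPS20 and RPS4X over RPS3A. Among the 25 pairs that stood 3 places apart, 19 still overlapped. RPS26, which lines the exit of the mRNA channel, RPS13, RPS15, RPS29 and RPS25 formed the rest of the 9 members called higher, with fitted log2 ratios from 0.50 to 0.74. RPS15 lost its call without DMSO culture 1 (edgeR adjusted p = 0.0561) or DMSO culture 3 (edgeR adjusted p = 0.0913), and RPS29 lost its call without DMSO culture 2 or DMSO culture 3 and with voom. RPS20, RPS23 (a protein of the decoding site), RPS6, RPS27, RPS19 (the gene most often mutated in Diamond-Blackfan anaemia), RPS3, RPS24, RPS27A, RPS14, RPS9 and RPS4X lay from 0.20 to -0.34 and did not pass the edgeR test in either direction. DESeq2's Wald test called RPS4X, RPS9, RPS14 and RPS27A lower as well, 12 members in all, and with a filter of 50 counts edgeR called 10 members lower, adding RPS4X and RPS9. RPS6 stood at 0.02, 0.11 and 0.29 and was not among the members called lower. The 12 proteins of the head had a median log2 ratio of 0.14, with 8 above 0, and the 16 proteins of the body and platform a median of -0.13, with 7 above 0.

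Since each 40S subunit takes 1 copy of each protein, the levels per length show how unequal the reads were among the members. Per kilobase of coding sequence, RF in DMSO ran from 280 CPM (RPSA) to 22500 CPM (RPS16), with a median of 1280 CPM. The median of all genes was 11.3 CPM per coding kilobase. The next member after RPS16 was RPS24 at 2900 CPM. RPS16 was 17.6-fold above the members' median and ranked 4 among 13018 genes with a coding length. In total RNA, RPS16 was also the highest member, at 3400 ± 77.9 FPKM (fragments scaled by transcript length and library size, SD, n = 3), 4.11-fold above the members' median of 828. RPS24 was the next at 2170 and RPS26 the lowest at 233. RPS29 is listed at 0 FPKM although it had 11701 to 18090 counted reads in each total RNA library, so FPKM covers 27 members. When RF per coding kilobase was divided by FPKM, RPS16, RPS28, RPS25 and FAU were highest and RPS10, RPS3A, RPS15A and RPS2 lowest, and the order correlated with that of TE at a Spearman rho of 0.923 (27 members, which share their libraries).

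**Figure D2:**
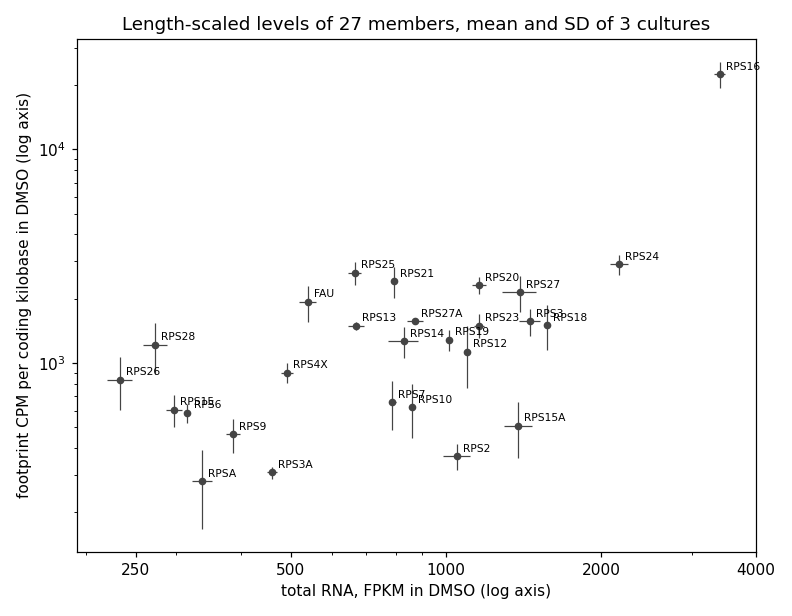
Footprint CPM per kilobase of coding sequence against FPKM of total RNA in DMSO, both on log axes, for the 27 members with an FPKM above 0; points are means and bars SDs of 3 cultures. RPS16 stands at 22500 CPM per kilobase and 3400 FPKM, while the other members lie between 280 and 2900 CPM per kilobase.

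RPS16 alone took 0.95% ± 0.118 (SD, n = 3) of the counted RF reads in DMSO and 1.04% ± 0.0866 with rapamycin. It took 0.231% and 0.219% of the total RNA reads. All 28 members together took 2.35% ± 0.208 of RF reads in DMSO and 2.42% ± 0.0862 with rapamycin, so their share of the footprints differed by less than the spread between cultures. Without RPS16 these shares were 1.4% and 1.38%. The 47 proteins of the 60S subunit took 2.4% and 2.48%.

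How well reads can be assigned differed between members, because only uniquely aligned reads were counted and ribosomal protein genes have many processed copies in the genome. The annotation lists 474 pseudogenes of the 28 members, from 1 (RPS9) to 74 (RPSA), and every member has at least 1. Of the 30-base windows of each coding sequence, a median of 23.8% occurred once in GRCh37. RPS3A, RPS10, RPS26, RPS27 and RPS28 had no unique window in this exact search, and 22 members had under 50%. The 6 members with at least 50% were RPS6, RPS14, RPS16, RPS19, RPS21 and FAU, and their median log2 ratio in DMSO was 0.60, ranging from -0.21 to 2.08, against -0.11 for the other 22. The 5 members without a unique window had a median of 0.12, from -1.08 to 0.84. Over the 28 members the Spearman rho of TE in DMSO was 0.316 with the unique share, -0.407 with the number of pseudogenes and -0.578 with coding length, which ran from 168 bases (RPS29) to 885 (RPSA). The rho with coding length was -0.148 over 13018 genes and -0.487 over the 1616 abundant genes with a length. These are descriptions over genes that share libraries, and the part of read assignment in the levels was not tested.

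**Figure D3:**
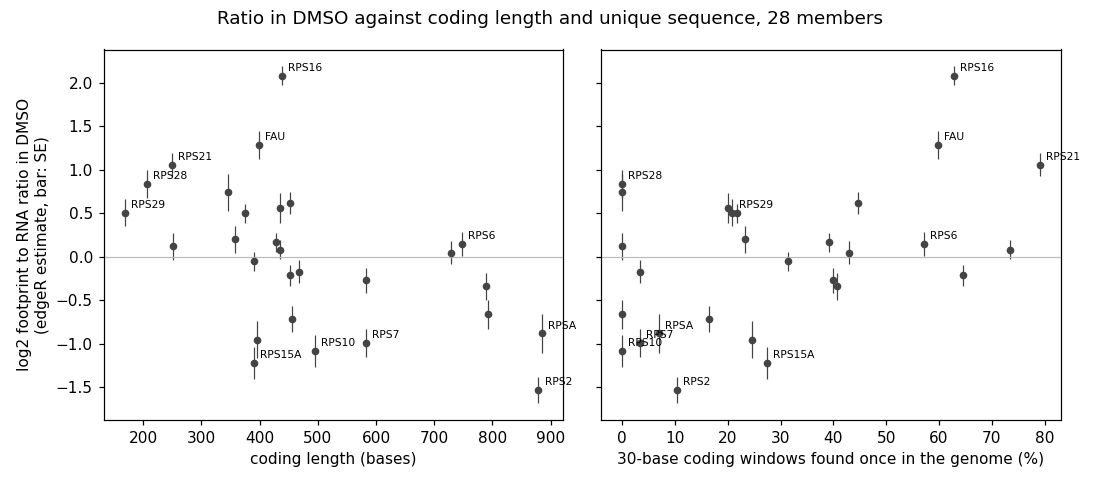
Fitted log2 ratio of footprints to total RNA in DMSO for the 28 members, against coding length in bases (left) and the percent of 30-base coding windows that occur once in the genome (right); points are edgeR estimates and bars their SE. The longest members, RPSA and RPS2, lie at -0.88 and -1.53, and RPS16 and FAU, at 62.8% and 59.7% unique windows, lie highest.

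Several members also overlap other genes, and the strand setting of the counting is not given in the sources used here. RPS10 (chr6:34385231-34393846) shares its exons' region with the readthrough gene RPS10-NUDT3, and RPS28 (chr19:8386042-8388224) overlaps NDUFA7 and KANK3. FAU overlaps SYVN1, RPS4X overlaps PIN4, RPS3A overlaps SH3D19, RPS23 overlaps ATG10, RPS25 overlaps CENATAC and RPS27A overlaps CLHC1. RPS9 overlaps LILRA6 and LILRB3 in the annotation used, RPS29 overlaps LRR1, and RPS15A overlaps a coding gene without a symbol. RPS16 (chr19:39923777-39926589) overlaps no annotated gene. Levels of the overlapping members are uncertain to that extent.

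The second comparison asks whether 60 min of rapamycin changed the TE of these mRNAs. No member passed the test for a change in TE. The edgeR quasi-likelihood test of the interaction of library type and treatment called 0 of 28 members at an adjusted p under 0.05, where it called 0% of all genes, and 0 of 28 at an unadjusted p under 0.05, where 12.6% of all genes lay. DESeq2's Wald test called 0 members after adjustment and 6 before it, with a smallest adjusted p of 0.0654 (RPS9), while it called 9.61% of all genes after adjustment and 22.1% before it. Limma's voom called 0 members at either level, where it called 0% of all genes after adjustment and 6.99% before it. The members' median change was -0.09 on the log2 scale and that of all genes -0.06. Of the members, 16 had a negative estimate and 12 a positive one. Without rapamycin culture 3, the smallest RF library, 13 were negative and the median was 0.026, so the sign of the median rests on that culture. Without DMSO culture 2, 3 members had an unadjusted p under 0.05 (14.2% of all genes did). Without DMSO culture 3, rapamycin culture 1 or rapamycin culture 2, 2 members did (23.3%, 9.58% and 12.3% of all genes), and 0 members passed after adjustment in each case. Among the 1625 abundant genes, 6.4% had an unadjusted p under 0.05.

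The precision behind this was higher for the members than for most genes. The median SE of the log2 change was 0.21 for the members and 0.58 for all genes. In the footprints alone, which carry most of the spread, it was 0.23 for the members and 0.84 for all genes. In the edgeR model over both library types, the 95% intervals of all 28 members lay within 2-fold, which held for 15.7% of all genes. The lowest bound was 0.532-fold (RPS20) and the highest 1.99-fold (RPS15 and RPS28). That model shares a gene's dispersion between the library types. Its coefficient of variation was 24.4%, against 54.9% among RF libraries alone, so these intervals may be too narrow. The RF interval of RPS15 alone reached 2.08-fold. The narrowest intervals of TE reached changes well inside 2-fold, such as that of RPS24 from 0.742-fold to 1.16-fold. A change inside a member's interval was not detectable at this depth.

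**Figure D4:**
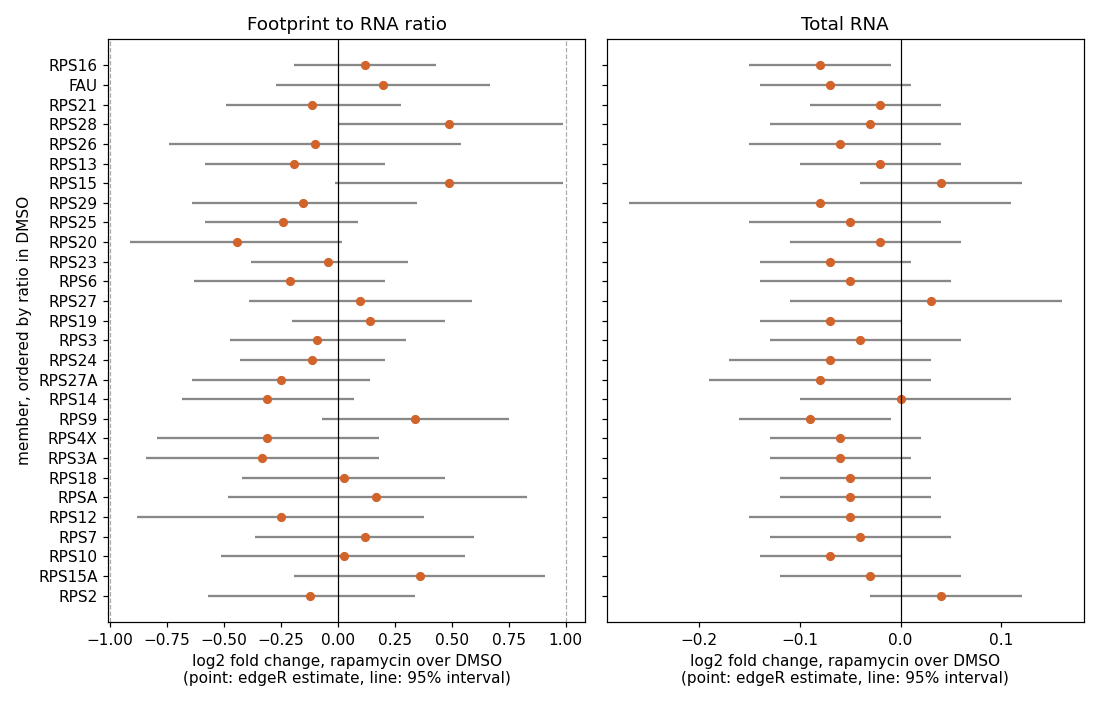
Log2 fold change of rapamycin over DMSO for each member in the ratio of footprints to RNA (left) and in total RNA (right), with 95% intervals from edgeR; dashed lines on the left mark 2-fold, and the panels have different scales. No interval of the ratio reaches a dashed line, and the estimates lie between -0.44 and 0.49 for the ratio and between -0.09 and 0.04 for total RNA.

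The order of the members by TE was compared between the treatments. The Spearman rho between the fitted TE in DMSO and in rapamycin was 0.951 over the 28 members, and no member moved by more than 7 places. Within each culture, the members' median log2 TE lay 0.81, 0.77 and 0.81 above the median of all genes in DMSO and 0.67, 0.59 and 0.71 above it with rapamycin. Those values do not overlap. Against the median of the 1625 abundant genes, where counting noise is smaller, they lay 1.14, 1.07 and 1.18 above it in DMSO and 1.02, 1.10 and 1.06 above it with rapamycin, which overlap. Against the 60S proteins, the members' median differed by 0.02, 0.06 and 0.15 in DMSO and by -0.08, -0.01 and 0.09 with rapamycin, which overlap.

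RPS6 had log2 TE of 0.02, 0.11 and 0.29 in DMSO and of -0.35, 0.02 and 0.16 with rapamycin. Its RF levels were 403, 421 and 486 CPM against 306, 363 and 446 CPM, and its total RNA 396, 390 and 399 CPM against 391, 359 and 398 CPM. The treatments overlapped in all 3 measures. Its TE change was -0.21 (SE 0.20) on the log2 scale, an interval of 0.647-fold to 1.16-fold (edgeR adjusted p = 0.701).

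The cultures of the treatments did not overlap in TE for 2 of 28 members, both higher with rapamycin (7.14%, against 4.85% of all genes higher and 9.96% in either direction). RPS28 was one of them, with log2 TE of 1.42, 1.29 and 1.29 in rapamycin against 0.54, 1.15 and 0.69 in DMSO. Its RF levels were 203, 329 and 223 CPM in DMSO and 356, 338 and 356 CPM in rapamycin, on total RNA of 133 to 148 CPM in all 6 cultures. The TE change was 0.49 (SE 0.23), 1.41-fold with an interval up to 1.99-fold, an unadjusted p of 0.0501 and an edgeR adjusted p of 0.395. RPS28 had no unique 30-base window.

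RPS9, a protein at the entry of the mRNA channel, was the other. When every RF library was set against the mean total RNA of its treatment, with no use of the numbers, RPS28 and RPS9 were again higher without overlap, and RPS14 was lower without overlap. The log2 TE of RPS9 was -0.64, -0.21 and -0.06 in DMSO and 0.00, 0.25 and -0.04 with rapamycin. The gap between the groups was thus small beside the spread within DMSO. The change of RPS9 was 0.34 (SE 0.19), with an interval of 0.952-fold to 1.69-fold and an edgeR adjusted p of 0.483.

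RPS15, a head protein whose tail reaches the decoding site, had a TE change of the same size as RPS28, 0.49 (SE 0.23, edgeR adjusted p = 0.405). Its log2 TE was 0.56, 0.26 and 0.81 in DMSO and 1.10, 0.66 and 1.38 with rapamycin, which overlap. RPS20, a head protein ubiquitinated on stalled ribosomes, had the lowest estimate, -0.44 (SE 0.22, edgeR adjusted p = 0.421), from 0.19, 0.09 and 0.29 to 0.10, -0.43 and -0.54. The highest rapamycin culture of RPS20 lay just above the lowest DMSO culture. RPS27A, which is made as a fusion with ubiquitin, went from -0.26, -0.09 and -0.15 to -0.25, -0.27 and -0.80, a change of -0.25 (SE 0.18, edgeR adjusted p = 0.601).

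Apart from RPS28, the members at the ends of the TE order overlapped between the treatments. RPS16 stood at 2.26, 2.31 and 2.01 with rapamycin, a change of 0.12 (SE 0.15) with an interval of 0.878-fold to 1.35-fold. FAU stood at 1.33, 1.36 and 1.75 (change 0.20, SE 0.22) and RPS21 at 0.90, 0.88 and 1.07 (change -0.11, SE 0.18). RPS2 stood at -1.40, -1.62 and -2.06 (change -0.12, SE 0.21), RPS15A at -0.59, -1.17 and -0.91 (change 0.36, SE 0.26), RPS10 at -0.87, -0.95 and -1.44 (change 0.03, SE 0.25) and RPS7 at -0.96, -0.92 and -0.73 (change 0.12, SE 0.22). The 7 members had edgeR adjusted p-values from 0.595 to 0.978.

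The other members, which are named with their roles here, lay between these. The head proteins RPS3, RPS12, RPS18, RPS19, RPS25 and RPS29 had TE changes from -0.25 to 0.14. RPS3 lies at the entry of the mRNA channel, and RPS25 is known for its part in initiation at viral internal ribosome entry sites. The body and platform proteins RPSA, RPS3A, RPS4X, RPS13, RPS14 (the gene tied to the anaemia of the 5q- syndrome), RPS23, RPS24, RPS26 and RPS27 had changes from -0.33 to 0.17. The median change was -0.03 for the 12 head proteins (6 negative) and -0.10 for the 16 of the body and platform (10 negative).

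The estimates were also set beside the TOP letters of the start sites. The 18 members with the motif had a median TE change of -0.06, with 10 negative, and the 7 without it -0.10, with 4 negative. Those 7 include RPS28, RPS4X and RPS26, whose pyrimidine run begins just after the annotated start, and RPS7, where a run crosses it. In RPS15, RPS27A and RPS29 a run begins further downstream. The split thus depends on where the start is annotated. Among the 18, the Spearman rho of run length with TE change was -0.00105. In RPS24, with the longest run of those printed above, the change was -0.11 (SE 0.15). In RPS7, without a run that begins within 4 bases of the annotated start, it was 0.12 (SE 0.22). The median ratio in DMSO was 0.07 for members with the motif and 0.51 for those without. Members with at least 50% unique windows had a median TE change of 0.01 and the others -0.09.

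The proteins of the large subunit were measured in the same way. The 47 proteins of the 60S subunit had a median TE change of -0.05, with 25 negative and 0 called at an adjusted or unadjusted p under 0.05 in edgeR. The smallest p among them belonged to RPL31, at -0.51 (SE 0.25, edgeR adjusted p = 0.423).

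On their own, the footprints gave no call among the members. The nearest to the threshold were RPS15, with RF levels of 262, 219 and 310 CPM in DMSO and 386, 305 and 469 CPM with rapamycin, and RPS20, with 809, 760 and 908 CPM against 782, 501 and 499 CPM. RPS15 was 1.46-fold higher (interval 1.02 to 2.08) and RPS20 0.721-fold (0.521 to 0.998). These 2 members had an unadjusted p under 0.05 in edgeR (3.68% of all genes did), and 0 passed after adjustment, as 0% of all genes did. DESeq2 called 0 RF changes among the members at an adjusted or unadjusted p under 0.05, where it called 0.0375% and 2.93% of all genes. The median RF change was -0.11 for the members and 0.02 for all genes, with 18 members negative. RF cultures did not overlap for RPS14, RPS25 and RPS27A, lower with rapamycin (4.21% of all genes), and for RPS28, higher (5.24% of all genes). Without DMSO culture 1, or without rapamycin culture 3, no member had an unadjusted p under 0.05 in RF (5.11% and 2.33% of all genes did).

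The estimates for total RNA of the members were small, and most had 1 sign. The log2 changes lay between -0.09 and 0.04, with a median of -0.05 against 0.01 for all genes. Of 28 members, 24 had a negative estimate, where 46.8% of all genes did. The edgeR test called 0 members at an adjusted p under 0.05, as 0% of all genes, and the smallest adjusted p was 0.766. Members with an unadjusted p under 0.05 were RPS9 (-0.09, SE 0.034), RPS16 (-0.08, SE 0.031) and RPS10 (-0.07, SE 0.030), which is 3 of 28 against 5.82% of all genes in either direction and 2.51% lower. DESeq2's Wald test called 0 members after adjustment and 7 before it, and of all genes 0.218% and 6.17%.

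RPS16 showed the size of these differences. Its total RNA was 2316, 2365 and 2309 CPM in DMSO and 2255, 2166 and 2179 CPM with rapamycin, 0.944-fold, and the treatments did not overlap. RPS9 went from 336, 325 and 325 CPM to 311, 298 and 319 CPM. The treatments did not overlap for 6 members, RPS3A, RPS4X, RPS9, RPS10, RPS16 and RPS19, all lower with rapamycin (21.4%, against 6.61% of all genes lower and 14.8% in either direction). The 60S proteins had a median RNA change of -0.04, with 42 of 47 negative. Rapamycin culture 2 gave the smallest total RNA library, and without it 19 members were negative, while across all settings tried the number lay between 19 and 26. Without DMSO culture 3, no member had an unadjusted p under 0.05 in total RNA, where 12.3% of all genes did. Without DMSO culture 1, DMSO culture 2 or rapamycin culture 1, 1 member did (3.81%, 3.99% and 6.14% of all genes).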

How the data were processed

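The labels gave the treatment and culture of each RF and total RNA library. The authors deposited raw counts per gene. They cleaned the RF reads of linker, low quality and ribosomal RNA, mapped both kinds of read to GRCh37 by HISAT2, and used featureCounts to count only reads with a single alignment, over exons of protein-coding genes. The authors also deposited FPKM values of total RNA, which the submitters' processing notes credit to Cufflinks 2.2.1 and Cuffnorm. The tables also hold the authors' own ratios, fold changes and p-values from RiboDiff and Cuffnorm's scaled counts, which were not used.

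The software was edgeR 4.0.16, DESeq2 1.42.0 and limma 3.58.1 under R 4.3.3, with scipy 1.17.1 and pandas 2.3.3 under Python 3.11. TMM factors were computed separately for RF and for RNA libraries. A gene was tested if its counts summed to at least 10 in RF and to at least 10 in RNA. For TE, edgeR's quasi-likelihood test was applied to the library type by treatment interaction, and the same model's library type coefficient gave the ratio in DMSO. Treatment was also tested in RF and in total RNA separately. Adjustment was by Benjamini and Hochberg's method across every tested gene, at a threshold of 0.05. Intervals are at 95%. A prior count of 2 entered the log2 TE of single cultures. On counts simulated with less spread in RF than these libraries had, the test of the interaction called more unchanged genes than its threshold allows. Its rate of such calls in these data is therefore not known, and the test of the ratio in DMSO was not simulated. Coding sequences, pseudogenes and overlaps came from GENCODE 44 lifted to GRCh37, which is not the authors' annotation version, and start sites from RefSeq.

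Values are given in full for RPS6, RPS27A, FAU, the 4 members with the highest and the 4 with the lowest ratio in DMSO, members whose cultures do not overlap in TE or with an unadjusted p under 0.05 in a treatment test, and up to 2 genes with the smallest p of each other list. Other members were given ranges. One of the gene lists is not reported here. The members, lists and tests were chosen with earlier results of these data known. The alternatives were DESeq2's size factors and Wald test, TMM over all libraries, voom with a variance for each library type, other count filters, a block for the replicate number or the culture, dropping single cultures in turn, the mean total RNA of a treatment in place of the same-numbered library (chosen after seeing the data), and limma-trend on log2 FPKM.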

Additional observations from a re-analysis of the deposited data

How the results depend on the processing

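No member was called changed by rapamycin in TE, RF or total RNA under any alternative run. The scaling set the zero of the ratio in DMSO: with TMM over all libraries 18 members were called higher, 4 lower, and the members' median log2 ratio was 0.638, because the median gene moved by 0.57. The number of members with a negative ratio then fell from 13 to 8, and RPS27A (0.405) and RPS9 (0.306) were among those that turned positive. Single estimates near 0 changed sign elsewhere. The TE change of RPS10 was -0.05 with TMM over all libraries and -0.011 with voom. When each culture was left out in turn, TE changes ranged from -0.116 to 0.284 for RPS10, from -0.272 to 0.026 for RPS2, from -0.052 to 0.261 for RPS7 and from -0.177 to 0.018 for RPS21. In the same way, total RNA changes ranged from -0.067 to 0.001 for RPS28, from -0.044 to 0.015 for RPS20, from -0.074 to 0.0 for RPS6 and from -0.063 to 0.007 for RPS7. The total RNA change of RPS21 was 0.002 with limma-trend on log2 FPKM at each of its 3 settings. Of the estimates for the members whose values are given in full, 520 kept their direction and side of the threshold, 19 changed sign, 5 gained a call and 2 lost one. The other members are not in that tally, and their calls changed too. With TMM over all libraries, RPS12, RPS18, RPSA and RPS3A lost their call, and RPS3, RPS14, RPS19, RPS23, RPS24 and RPS27 gained one. The gains and losses were all in the ratio in DMSO.

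Cultures of the same number did not deviate together between treatments (r from -0.201 to -0.102 in total RNA and from -0.0896 to -0.0461 in RF), so they share only a number. With the number as a replicate block, edgeR called 0 members in TE, RF and total RNA after adjustment (0%, 0.045% and 0% of all genes). The members' median TE change was then -0.087. The depth of RF limits TE: intervals of the members held changes of up to 0.532-fold and 1.99-fold. With a dispersion shared between RF and total RNA, they may be too narrow.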

Other observations

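Genes that act on the small subunit without being part of it were measured beside the members. Of 22 maturation factors, which process the 18S RNA precursor or escort the unfinished subunit, 0 passed the edgeR test of TE after adjustment. Before adjustment 3 of them lay under 0.05, 1 lower and 2 higher, where 12.6% of all genes did. Their median TE change was -0.03 on the log2 scale. The smallest p-values belonged to RRP7A, a factor of early 40S assembly, and RPS19BP1, which binds RPS19. RRP7A had RF counts of 3, 1 and 6 in DMSO and of 35, 12 and 5 with rapamycin, a TE change of 2.54 (SE 0.53, edgeR adjusted p = 0.18). RPS19BP1 had RF counts of 7, 10 and 44 in DMSO and of 63, 209 and 63 with rapamycin, a TE change of 2.97 (SE 0.63, edgeR adjusted p = 0.18). In DMSO these counts were below those of any member in the same library, and the libraries were of unequal depth. Their total RNA changes were -0.02 and -0.07.

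Of 15 other mRNAs known for the TOP motif, mostly elongation and initiation factors, 14 were tested. Their median TE change was -0.10, with 10 negative, and 0 passed the edgeR test at an adjusted or unadjusted p under 0.05. EEF1D, a subunit of the exchange factor of elongation, stood at 0.39 (SE 0.21, edgeR adjusted p = 0.474) and NPM1, a nucleolar chaperone of ribosome assembly, at -0.31 (SE 0.17, edgeR adjusted p = 0.474). In DMSO these 14 mRNAs had a median log2 ratio of RF to total RNA of -0.91, below the 0.07 of the 28 members. The test of that difference was not made.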
